A study of Mus musculus with 8 samples.

Results

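The variable (V) segments of the T cell receptor alpha chain, whose symbols begin with Trav, were followed across sorted CD8 T cells of mouse spleen. Members were the genes listed with the biotype V segment and a symbol beginning with Trav, which gave 110 of the 15609 genes measured. They fell into 19 families and 47 named segments: 46 genes carried no copy letter, 34 carried a d and 30 carried an n. The d and n letters mark copies made by duplications of the locus. Segments with dv in the name, which can also join the delta chain, numbered 10. All 110 lay on chromosome 14 between bases 52427967 and 53876752 (GRCm38, the assembly also called mm10), a span of 1449 kb.

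All libraries came from CD8 T cells of wild-type C57BL/6 spleens, pulled down with anti-CD8 microbeads and then sorted. Naive cells (CD44- CD49d-) and true memory cells (CD44hi CD49d+) had 1 library each. Virtual memory (VM) cells (CD44hi CD49d-), which are memory-like cells that form without exposure to a foreign antigen, were split by the surface proteins Ly6C and Sca-1. The VM cells positive for Ly6C gave 2 libraries (A and B) without Sca-1 and 2 (A and B) with it, and those negative for Ly6C gave 1 without and 1 with Sca-1. No group carried a transgene or was given a treatment in the labels. The sources used here give neither ages nor whether mice were pooled, so p-values measure the spread between libraries, which may be technical.

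During development in the thymus, each T cell joins 1 V segment to 1 joining (J) segment on an alpha allele, and the joined exon is spliced to the constant gene Trac. Because the receptor decides which peptide a cell can bind, use of V segments describes the makeup of a T cell pool. A few segments mark invariant receptors: Trav11 joined to Traj18 makes the alpha chain of natural killer T (NKT) cells, and Trav1 joined to Traj33 that of mucosal-associated invariant T (MAIT) cells. In RNA of a whole sample, fewer cells with a segment and less of its RNA per cell cannot be told apart.

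Sequence decided how far single segments could be told apart. The following stretches are the first 290 bases of the V exon, from GENCODE transcripts on GRCm38, plus strand, and are shown because the results below turn on these segments and their copies. Capitals mark bases that differ from the segment named first in each pair.
Trav12n-3 (chr14:53240944-53241233): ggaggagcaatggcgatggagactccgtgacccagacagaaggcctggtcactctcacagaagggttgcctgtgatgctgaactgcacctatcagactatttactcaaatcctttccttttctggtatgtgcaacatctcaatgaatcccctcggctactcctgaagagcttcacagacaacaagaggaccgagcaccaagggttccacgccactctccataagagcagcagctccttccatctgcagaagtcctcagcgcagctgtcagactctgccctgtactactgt
Trav12-3 (chr14:53621945-53622234): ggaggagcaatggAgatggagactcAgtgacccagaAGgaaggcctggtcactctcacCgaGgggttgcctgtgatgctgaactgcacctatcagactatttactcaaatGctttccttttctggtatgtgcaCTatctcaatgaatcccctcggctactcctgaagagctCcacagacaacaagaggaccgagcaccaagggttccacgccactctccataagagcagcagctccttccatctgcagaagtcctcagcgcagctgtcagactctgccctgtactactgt
Trav15n-2 (chr14:53268233-53268522): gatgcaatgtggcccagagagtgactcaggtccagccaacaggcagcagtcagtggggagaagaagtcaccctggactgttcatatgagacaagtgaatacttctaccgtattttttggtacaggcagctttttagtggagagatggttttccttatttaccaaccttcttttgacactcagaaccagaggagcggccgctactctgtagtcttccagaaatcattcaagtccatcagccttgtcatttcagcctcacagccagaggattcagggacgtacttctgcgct
Trav15-2-dv6-2 (chr14:53649695-53649984): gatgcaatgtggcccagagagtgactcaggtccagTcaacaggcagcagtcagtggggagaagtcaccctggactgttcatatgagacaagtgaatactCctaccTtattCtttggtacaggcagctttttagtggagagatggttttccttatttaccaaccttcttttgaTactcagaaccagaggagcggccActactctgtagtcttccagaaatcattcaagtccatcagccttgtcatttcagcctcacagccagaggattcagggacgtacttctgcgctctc
Trav11 (chr14:53519569-53519858): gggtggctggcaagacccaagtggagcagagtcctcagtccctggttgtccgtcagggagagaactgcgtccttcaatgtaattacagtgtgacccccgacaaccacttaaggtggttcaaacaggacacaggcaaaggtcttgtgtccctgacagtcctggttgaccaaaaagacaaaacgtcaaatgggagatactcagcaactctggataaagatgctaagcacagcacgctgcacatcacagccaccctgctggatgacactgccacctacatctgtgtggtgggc
Trav11n (chr14:53135388-53135677): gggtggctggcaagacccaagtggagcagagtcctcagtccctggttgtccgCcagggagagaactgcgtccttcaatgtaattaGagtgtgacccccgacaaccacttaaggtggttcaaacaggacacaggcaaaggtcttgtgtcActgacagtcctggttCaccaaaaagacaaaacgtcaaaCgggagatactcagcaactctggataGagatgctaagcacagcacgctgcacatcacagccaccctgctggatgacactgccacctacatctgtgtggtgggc

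Trav12-3 differed from Trav12n-3 at 10 of the 290 positions. Trav15-2-dv6-2 differed from Trav15n-2 by 6 substitutions and lacked 3 of its bases. The copies Trav12d-3, Trav15d-2-dv6d-2 and Trav11d are not shown, because over these stretches they equal Trav12n-3, Trav15n-2 and Trav11 letter for letter. Trav11n carries C86G relative to Trav11, counted from the first base shown, and its spliced coding sequence has a stop at codon 46, which ends on that base. GENCODE lists Trav11n and 3 other members, Trav13-3, Trav8-2 and Trav9n-1, as pseudogenes.

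Such likeness was common in the locus. Across the coding sequences, 38 members formed 19 pairs that were identical over the length of the shorter sequence (15 pairs were of equal length and 4 were not), and for 97 of 110 the closest member was at least 95% identical. Reads were 101 bases long, and 36 members had no 101-base window of their own. Those 36 held 32.9% of Trav counts on average, so their split between copies rests on how the authors' counting placed shared reads. Trav11 (NCBI Gene 100126466) and Trav11d (640196) were both given 251 counts over all libraries and never differed by more than 2 counts in a library. The identical Trav12n-3 (667681) and Trav12d-3 (667542) were given 3448 and 1421. Introns and untranslated bases, where copies may differ, were not compared.

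Library totals ran from 49993407 to 63815914 counts, of which 11180 to 14758 fell on Trav segments, with a median of 78.5 to 100.5 counts a segment. Cd8a, which encodes a chain of CD8, lay between 1007 and 1315 CPM, the count put on a scale shared by all library totals, in every library. The 4 CD4 T cell markers in the table summed to 222 and 262 CPM in the Ly6C- libraries, 16.5 to 39.1 in the Ly6C+ libraries, 16.1 in naive and 104 in true memory. Most of that sum was Ctla4, and Cd4 itself lay between 0.160 and 7.99 CPM. The 6 dendritic or MHC class II genes summed to 5039 CPM in true memory and to 45.8 to 356 in the other libraries. The 6 markers of gamma delta or innate-like T cells summed to 130 to 167 CPM in the Ly6C+ libraries, nearly all of it Cd163l1, and to 13.4 to 53.1 in the others. The part of these markers in the results below was not tested.

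Every library used the locus broadly. The effective number of segments (the inverse Simpson index of their shares, which would be 110 if all were used alike) was 70.6 in naive and 70.5 in true memory cells. It was 64.2 (A) and 64.7 (B) in Ly6C+ Sca-1-, 67.3 (A) and 65.7 (B) in Ly6C+ Sca-1+, 66.3 in Ly6C- Sca-1- and 67.7 in Ly6C- Sca-1+. All 6 VM libraries lay below naive and true memory, which have 1 library each, and the difference was not tested. With the copies of each named segment summed, naive was at 27.81 and true memory at 28.43. VM libraries then ran from 26.64 (Ly6C+ Sca-1- A) to 27.75 (Ly6C+ Sca-1+ A), close to naive. Between 25 and 27 segments made up 50% of the Trav counts of a library. No segment reached 10% of any library, and the highest share was 4.78% for Trav12n-3 in Ly6C+ Sca-1- A (95% exact binomial interval 4.44 to 5.14%, counting error only).

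Summed over the locus, Trav reached 203 CPM in naive and 195 in true memory. VM libraries lay above both, at 238 (A) and 253 (B) CPM in Ly6C+ Sca-1-, 222 (A) and 240 (B) in Ly6C+ Sca-1+, 231 in Ly6C- Sca-1- and 220 in Ly6C- Sca-1+. Trac, the constant gene they join, showed a like order of naive and true memory, at 610 and 541 CPM against 641 to 743 in VM. Set against 100 Trac counts, Trav gave 31.1 and 30.4 counts in the Ly6C- libraries, 34.7 to 35.0 in the Ly6C+ libraries, 33.3 in naive and 36.1 in true memory. The Ly6C- libraries were the lowest of the 8 by this ratio.

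Per kilobase of coding sequence, Trav12n-3 had the highest mean level over the 8 libraries, at 21.5 CPM per kb, followed by Trav12-2 and Trav16n at 20.6 each, Trav16 at 19.1 and Trav6-6 at 18.2. Trav3-3, Trav13-1 and Trav3d-3 came next at 15.4, 15.3 and 15.2 CPM per kb, and Trav14-1 and Trav3n-3 at 12.7 and 12.5. The same 10 segments held the highest mean shares of Trav counts, from 3.28% for Trav12n-3 to 1.90% for Trav3n-3. Neighbours in this order often overlapped: Trav16n held 2.78 to 3.74% across libraries and Trav12-2 held 2.41 to 3.48%. The order counts each gene singly, and adding identical copies would change it. Trav3d-3 and Trav3n-3 are identical, as are Trav6-6 and Trav6d-6 (5.84 CPM per kb). So are Trav14d-1 and Trav14n-1, which at 11.1 and 10.6 CPM per kb lay outside these 10. Together with its identical copy Trav12d-3, Trav12n-3 held 3.40 to 6.78%. The lowest was the pseudogene Trav11n, with 4 to 8 counts a library. With each gene counted singly, Trav12n-3 led in both Ly6C+ Sca-1- libraries and in Ly6C+ Sca-1+ A, Trav16 in Ly6C- Sca-1- and true memory, and Trav16n in the other 3. Adding identical copies would change some of these leaders. In Ly6C- Sca-1-, Trav3d-3 and Trav3n-3 had 17.4 and 14.4 CPM per kb, beside 26.4 for Trav16. The leaders were thus not read as a difference between cell groups.

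**Figure D1:**
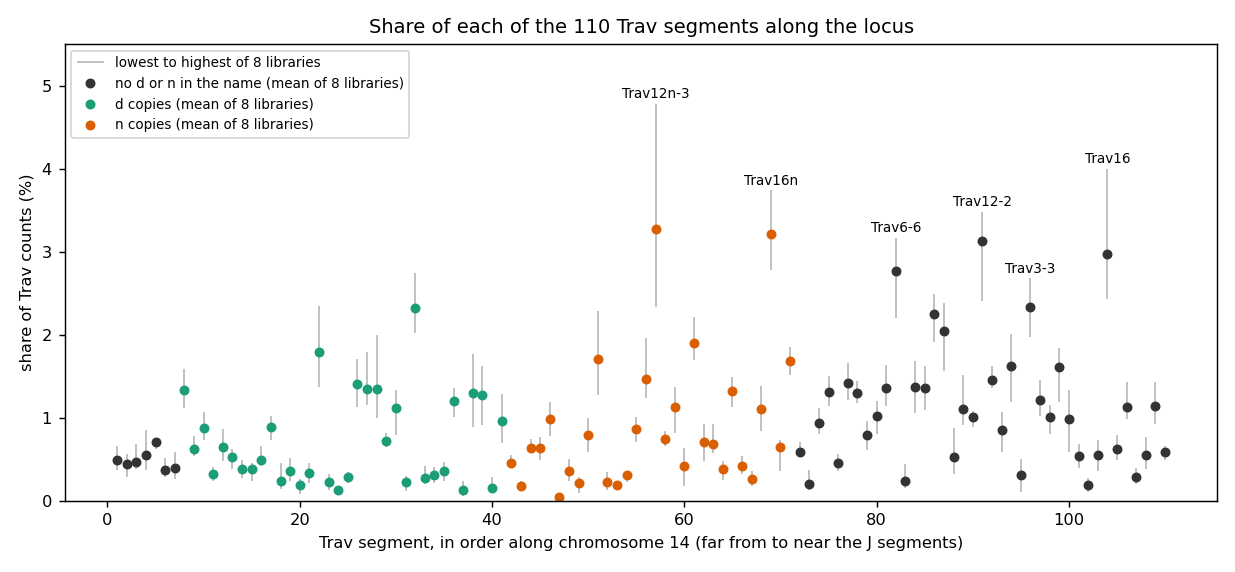
Share of all Trav counts (%) held by each of the 110 segments, in their order along chromosome 14 from far to near the J segments. Points are means over the 8 libraries, grey lines run from the lowest to the highest library, and colours give the copy letter; the high shares crowd to the right, and Trav12n-3 has the longest line, from 2.33 to 4.78%.

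Position in the locus went with level. The 37 segments nearest the J segments held 44.3% of Trav counts on average and 7.86 CPM per kb a segment. The 36 in the middle held 31.4% and 5.69 CPM per kb, and the 37 farthest held 24.2% and 4.30 CPM per kb. This order held in each library, with 42.8 to 45.9% in the near part, 30.8 to 32.3% in the middle and 23.3 to 25.2% in the far part. Of the 36 members with no 101-base window of their own, only Trav6-6 lay in the near part. The placing of shared reads thus bears mostly on the middle and far parts, and its part in this order was not tested. Copy letters follow position in part: segments with no letter held 48.6%, n copies 27.0% and d copies 24.5%. The 10 segments that can also join the delta chain held 6.43 to 6.88% in 7 libraries and 7.68% in true memory.

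By family, Trav6 (15 segments) held 13.6% on average, Trav12 (9 segments) 13.2% and Trav14 (9 segments) 13.2%. Trav16, with 3 segments, held 7.46% and had the highest mean level a segment, at 15.9 CPM per kb. Trav6 ranged from 12.2% in naive to 14.9% in Ly6C- Sca-1+ VM, and Trav14 from 10.7% in Ly6C- Sca-1+ VM to 14.5% in naive. Trav15 ranged from 1.22% in Ly6C- Sca-1+ to 2.50% in naive, and Trav11 from 0.336% in naive to 0.939% in Ly6C- Sca-1+. Over single segments the highest share was a median 1.66 times the lowest, and 27 of 110 reached 2 times.

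Ly6C separated the VM libraries in 2 segments, both higher in Ly6C+ cells. Each of them has an identical copy, so the result belongs to the pair. Of 109 members tested (Trav11n had too few counts), 2 were called higher and 0 lower at an adjusted p under 0.05 in edgeR's quasi-likelihood test, which is 1.83%. Over all 15112 genes tested, 21.4% were called, 8.88% higher and 12.6% lower. At an unadjusted p under 0.05 there were 8 members, all higher, against 36.2% of all genes. The members' median log2 fold change was 0.07, against 0.00 for all genes.

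Trav12n-3, the most used segment, had 11.4 (A) and 10.7 (B) CPM in Ly6C+ Sca-1- and 8.10 (A) and 7.31 (B) in Ly6C+ Sca-1+. In the Ly6C- libraries without and with Sca-1 it had 5.92 and 5.13 CPM, in naive 5.90 and in true memory 5.29. All 4 Ly6C+ libraries were above both Ly6C- libraries, and naive and true memory lay with the latter. Its log2 fold change was 0.79 ± 0.16 (SE; 4 against 2 libraries; adjusted p = 0.020). The identical Trav12d-3 followed the same order of levels, at 4.75, 4.24, 3.27 and 2.96 CPM in Ly6C+ and 2.57 and 2.34 in Ly6C- cells (0.66 ± 0.22, adjusted p = 0.082). With both added before the fit, the difference was 0.75 ± 0.15 (adjusted p = 0.018). In shares of Trav counts the pair held 4.27 to 6.78% in Ly6C+ and 3.67 and 3.40% in Ly6C- cells. Trav12-3, which differs in the capitals shown above, had 3.27 to 4.12 CPM in Ly6C+ and 3.13 and 2.99 in Ly6C- cells (0.32 ± 0.20, adjusted p = 0.30).

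Trav15n-2 had 91 (A) and 69 (B) counts in Ly6C+ Sca-1- and 65 (A) and 77 (B) in Ly6C+ Sca-1+, or 1.51, 1.38, 1.07 and 1.31 CPM. It had 42 and 20 counts in the Ly6C- libraries without and with Sca-1, or 0.658 and 0.393 CPM, with 0.789 in naive and 0.491 in true memory. Here too the 4 Ly6C+ libraries were the highest of the 8, and the log2 fold change was 1.41 ± 0.30 (adjusted p = 0.024). Its identical copy Trav15d-2-dv6d-2 had 0.575 to 0.760 CPM in Ly6C+ and 0.392 and 0.354 in Ly6C- cells (0.87 ± 0.32, adjusted p = 0.10). Added together the pair gave 1.20 ± 0.26 (adjusted p = 0.026). Trav15-2-dv6-2, the third copy, had 0.578 to 1.28 CPM in Ly6C+ and 0.235 and 0.550 in Ly6C- cells (1.24 ± 0.37, adjusted p = 0.064).

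Neither call held when a Ly6C- library was left out. Doing so also took the Ly6C+ libraries of the same Sca-1 state out of the comparison, so these fits compared Ly6C within a single Sca-1 state. Without Ly6C- Sca-1-, and so among Sca-1+ cells, Trav12n-3 gave 0.61 and Trav15n-2 1.61. Without Ly6C- Sca-1+, and so among Sca-1- cells, they gave 0.98 and 1.22. Leaving out Ly6C+ Sca-1+ A ended the call of Trav12n-3 (adjusted p = 0.064), and leaving out Ly6C+ Sca-1+ B that of Trav15n-2 (adjusted p = 0.052). The Ly6C- libraries are also those with the highest CD4 T cell marker sums, whose part was not tested.

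**Figure D2:**
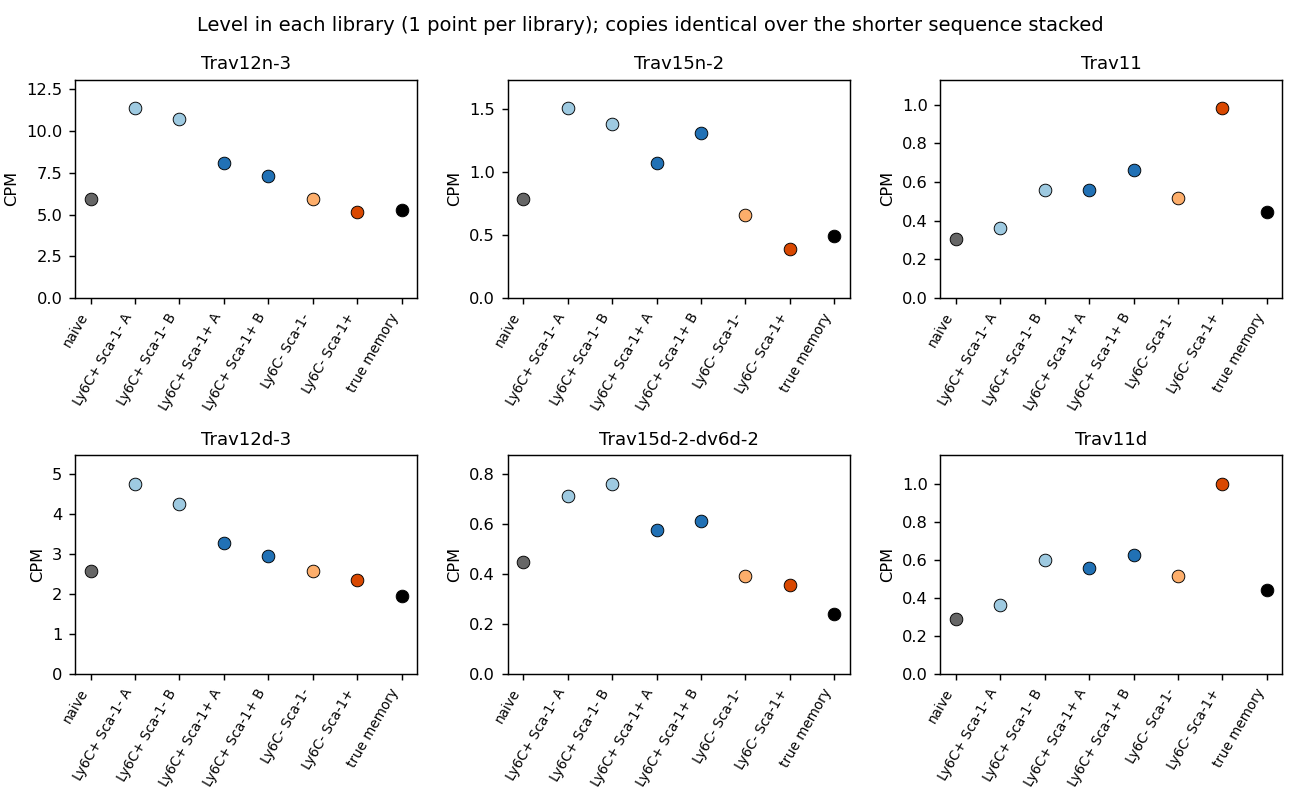
Level in CPM (vertical axis, from 0) of 3 segments (top) and of the copy with coding sequence identical over the shorter of the pair (bottom) in each of the 8 libraries, 1 point a library with no error bar. Trav12n-3 and Trav15n-2 are highest in the 4 Ly6C+ libraries, in blue, and their copies follow, while Trav11 and Trav11d are highest in Ly6C- Sca-1+, near 1 CPM.

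Counted by overlap alone, 16 of the 109 members (14.7%) had every Ly6C+ library above every Ly6C- library in CPM, against 18.6% of all genes. In the other direction there were 9 members (8.26%), against 29% of all genes. Both member shares were under those of all genes. As shares of Trav counts, 14 (12.8%) were higher and 17 (15.6%) lower with no overlap. Other genes have no value on that scale, so these counts have no background to be set against.

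Between VM cells and naive cells no segment was called. The edgeR test called 0 of 109 members, against 5.39% of all genes (3.92% higher and 1.48% lower). DESeq2 called 0 members as well, against 9.89% of all genes it tested. At an unadjusted p under 0.05 there were 3 members, all higher in VM, against 20.4% of all genes. Fold changes were above 0 for 75 members and below 0 for 34, with a median of 0.17 against 0.00 for all genes. With libraries scaled on their Trav total the members' median was -0.03.

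Trav13n-4 had the smallest p. It was at 0.735 CPM (41 counts) in the naive library and at 1.27 to 1.86 CPM in the 6 VM libraries, and its log2 fold change was 1.07 ± 0.34 (SE; 6 against 1 library; adjusted p = 0.15). Naive cells lay below every VM library and also below true memory, at 1.33 CPM. Trav6-6 had 4.47 CPM in naive and 5.36 to 7.61 in VM (0.53 ± 0.21, adjusted p = 0.23). Trav12-2 had 5.61 CPM in naive and 7.42 to 8.08 in VM (0.47 ± 0.19, adjusted p = 0.23). These 3 segments were named for their smallest p, so a naive value outside the VM range adds nothing to the test. Naive is also a single library.

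Against true memory cells the picture was alike. The edgeR test called 0 of 109 members, against 4.57% of all genes (0.139% higher in VM and 4.43% lower). DESeq2 called 0 members, against 6.12% of all genes it tested. An unadjusted p under 0.05 was reached by 5 members, all higher in VM, against 13.8% of all genes. Trav12-2 had 4.70 CPM in true memory and 7.42 to 8.08 in VM (0.72 ± 0.19, adjusted p = 0.13). The identical copies Trav14d-2 and Trav14n-2 had 1.54 and 1.58 CPM in true memory. In VM they ran from 1.96 to 3.32 and from 2.00 to 3.48 CPM, and their log2 fold changes were 0.74 ± 0.28 (adjusted p = 0.31) and 0.72 ± 0.28 (adjusted p = 0.33). The members' median was 0.21, with 83 above 0 and 26 below, and it became -0.04 when libraries were scaled on their Trav total. This library also held the MHC class II sum of 5039 CPM, whose part was not tested.

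Within Ly6C+ VM cells, Sca-1 made no called difference. The edgeR test called 0 of 109 members, against 0.00662% of all genes (1 gene, higher, and 0% lower). DESeq2 called 0 members, against 1.6% of all genes it tested. An unadjusted p under 0.05 was reached by 1 member, against 4.3% of all genes. This was Trav12n-3, at 8.10 and 7.31 CPM in Sca-1+ and 11.4 and 10.7 CPM in Sca-1- libraries (-0.53 ± 0.18; 2 against 2 libraries; adjusted p = 0.79). Trav12d-3 had 3.27 and 2.96 against 4.75 and 4.24 CPM (-0.54 ± 0.24, adjusted p = 1.00), and Trav6-7-dv9 had 2.86 and 2.79 against 1.41 and 2.12 CPM (0.68 ± 0.29, adjusted p = 1.00). In all 3, which were named for their smallest p, the pairs of libraries did not overlap. By overlap alone, 28 members (25.7%) were lower in both Sca-1+ libraries, against 9.56% of all genes, and 7 (6.42%) were higher, against 15%. As shares of Trav counts these became 21 lower (19.3%) and 19 higher (17.4%), with no value over all genes to set beside them. The 5 monocyte or macrophage markers summed to 72.9 and 98.9 CPM in the Ly6C+ Sca-1+ libraries and to 24.8 and 13.9 in the Ly6C+ Sca-1- libraries. The 4 erythroid markers in the table summed to 14.7 and 11.9 against 4.10 and 2.74 CPM. The part of these markers in the Sca-1 counts was not tested.

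The Sca-1 difference itself was compared between Ly6C- and Ly6C+ VM cells. The edgeR test of that difference called 0 members and 0% of all genes. DESeq2 called 0 members, against 0.283% of all genes it tested. At an unadjusted p under 0.05 there was 1 member, against 5.08% of all genes. Trav15-2-dv6-2 had 0.235 CPM (15 counts) in Ly6C- Sca-1- and 0.550 (28 counts) in Ly6C- Sca-1+. In Ly6C+ cells it had 0.794 and 1.28 CPM without and 0.739 and 0.578 with Sca-1, which gave 1.93 ± 0.73 (adjusted p = 0.98). Trav4-2 and Trav3-1 followed, at 1.58 ± 0.68 and 1.11 ± 0.53 (adjusted p = 1.00 for each).

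**Figure D3:**
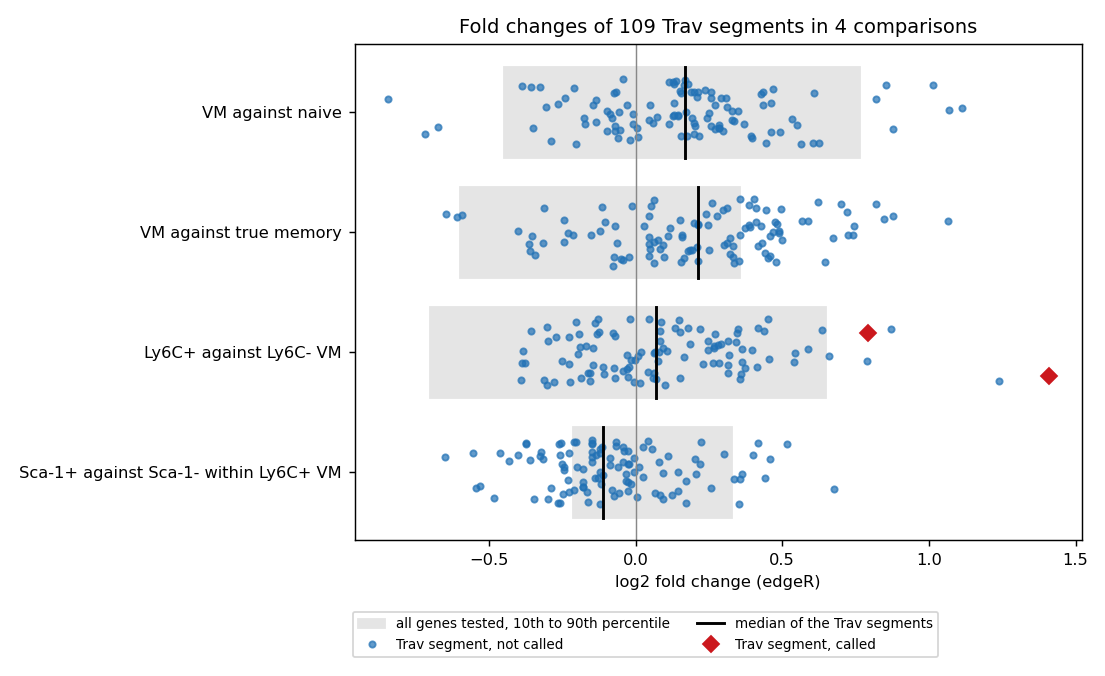
Log2 fold change (horizontal axis, edgeR) of 109 Trav segments in 4 comparisons (vertical axis, points spread for sight), with grey bars from the 10th to the 90th percentile of all genes tested and black lines at the segments' medians. Red diamonds are the 2 called segments, Trav12n-3 at 0.79 and Trav15n-2 at 1.41 in Ly6C+ against Ly6C- VM; the medians lie at 0.17, 0.21, 0.07 and -0.11 from top to bottom.

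True memory and naive cells, 1 library each, could be set side by side without a test. At least 2-fold differences in CPM were found for 1 of 110 members (Trav13d-1, at 0.428 CPM in true memory and 0.933 in naive), against 12.1% of all genes. Only 8 members averaged at least 5 CPM. Among them Trav6-6 had the highest log2 difference (0.35) and Trav12-2 the lowest (-0.25), and Trav16 (0.21), Trav3-3 (0.16), Trav13-1 (0.12), Trav3d-3 (-0.04), Trav16n (-0.12) and Trav12n-3 (-0.16) lay between. Within Ly6C- VM, 2 of 110 members differed at least 2-fold, against 6.17% of all genes. Both were higher with Sca-1: Trav15-2-dv6-2, given above, and Trav4-2, at 0.825 against 0.329 CPM. Among the 8 more abundant members the differences there ran from -0.41 for Trav16 to 0.27 for Trav6-6, with Trav12n-3 at -0.21, Trav13-1 at -0.15, Trav12-2 at -0.03, Trav3-3 at 0.00, Trav3d-3 at 0.01 and Trav16n at 0.05. Trav13d-1, Trav4-2 and Trav15-2-dv6-2 were named after their values were seen.

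Trav11 and Trav11d, the segments of the NKT receptor, ranked 97 and 96 of 110 by mean share of Trav counts, and Trav1, that of the MAIT receptor, ranked 71. Trav11 had 0.305 CPM (17 counts) in naive, 0.364 (A) and 0.560 (B) in Ly6C+ Sca-1-, and 0.558 (A) and 0.663 (B) in Ly6C+ Sca-1+. It had 0.517 in Ly6C- Sca-1-, 0.982 (50 counts) in Ly6C- Sca-1+ and 0.444 in true memory. Naive was lowest and Ly6C- Sca-1+ highest, but neither has a second library. VM against naive gave 1.01 ± 0.46 for Trav11 (adjusted p = 0.29), 1.11 ± 0.48 for the identical Trav11d (adjusted p = 0.27) and 1.07 ± 0.42 for their sum (adjusted p = 0.22). Ly6C+ against Ly6C- VM gave -0.38 ± 0.32 for Trav11 (adjusted p = 0.43) and -0.39 ± 0.33 for Trav11d (adjusted p = 0.44). Traj18, the J segment of the NKT receptor, lay at 0.646 CPM in naive, at 0.662 to 1.00 in the Ly6C+ libraries, at 0.345 and 0.550 in the Ly6C- libraries without and with Sca-1, and at 0.38 in true memory. The highest library of Traj18, Ly6C+ Sca-1+ A, was not that of Trav11. Both segments are at low levels, and the part of NKT cells in either was not tested.

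Trav1 had 1.06 CPM in naive, 0.893 (A) and 1.38 (B) in Ly6C+ Sca-1-, 0.887 (A) and 1.05 (B) in Ly6C+ Sca-1+, 1.54 in Ly6C- Sca-1-, 1.04 in Ly6C- Sca-1+ and 0.998 in true memory. Ly6C- Sca-1- was highest, and the 2 Ly6C+ Sca-1- libraries spanned most of the remaining range. The log2 fold changes were 0.13 ± 0.37 for VM against naive (adjusted p = 0.88) and -0.23 ± 0.29 for Ly6C+ against Ly6C- VM (adjusted p = 0.61). With libraries scaled on their Trav total, which put the median of all genes at -0.20, the first was -0.071. Traj33, its partner in MAIT cells, lay between 0.0680 and 0.648 CPM.

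Other genes of the receptor were tested in the same fit. In the Ly6C comparison, where 8.88% of all genes were called higher and 12.6% lower, 5 of 45 Traj segments (11.1%) were called higher in Ly6C+ VM and 0 lower. Their median log2 fold change was 0.82, and the 47 Traj segments measured summed to 28.3 to 33.6 CPM in Ly6C+ and 21.7 and 21.0 in Ly6C- cells. Of 22 beta chain V segments (Trbv) 0 were higher and 2 (9.09%) lower, with a median of -0.29. Trac did not pass the test (-0.06 ± 0.08). Trbc1 and Trbc2, the beta constant genes, fell by 0.44 (SE 0.08, adjusted p = 0.013) and by 0.45 (SE 0.08, adjusted p = 0.012) on the log2 scale. Among 4 CD3 and zeta chain genes, Cd247 (the zeta chain) was lower (-0.33 ± 0.08, adjusted p = 0.029), which is 1 gene beside the 12.6% of all genes called lower. Dntt, which adds bases at V to J joints, was lower in Ly6C+ cells (-2.46 ± 0.39, adjusted p = 0.0096), and Prkdc, a kinase of joint repair, was higher (0.43 ± 0.08, adjusted p = 0.014), as 1 of 7 end-joining genes (14.3%, beside 8.88% of all genes). Among 7 constant genes 3 were called lower (42.9%, beside the same 12.6%), the remaining one being Tcrg-C2 (-1.13 ± 0.30, adjusted p = 0.043). Tcrg-C2 was also lower in VM than in true memory cells (-2.09 ± 0.32, adjusted p = 0.018), as was Trgv2, a gamma chain V segment (-2.34 ± 0.33, adjusted p = 0.013), where 4.43% of all genes were called lower. In the comparison of VM with naive cells no receptor gene of these lists was called by edgeR, beside 5.39% of all genes. In the Sca-1 comparison within Ly6C+ cells and in that of the Sca-1 difference none was called either, beside 0.00662% and 0% of all genes.

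Usage of whole libraries was compared by the percent of Trav counts that would have to change segment to make 2 libraries alike. The 2 pairs of replicates differed by 6.87% (Ly6C+ Sca-1+) and 7.49% (Ly6C+ Sca-1-). The 4 pairs of Ly6C+ libraries with unlike Sca-1 differed by 6.69 to 9.57%, with a median of 7.20%, and the 2 Ly6C- libraries by 7.17%. The 8 pairs of a Ly6C+ with a Ly6C- library differed by 8.05 to 12.1%, all more than either replicate pair. Naive differed from VM libraries by 8.04 to 11.1% and from true memory by 8.75%, and true memory differed from VM libraries by 8.23 to 11.3%. These pairs share libraries and were not tested. Chi-square per degree of freedom over segments was 2.17 and 2.37 for the replicate pairs, which is more than independent counts would give. Identical copies may share reads and so are not independent, and their part in this excess was not tested. Replicates were counted as separate libraries, but this excess cannot tell biological from technical spread.

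**Figure D4:**
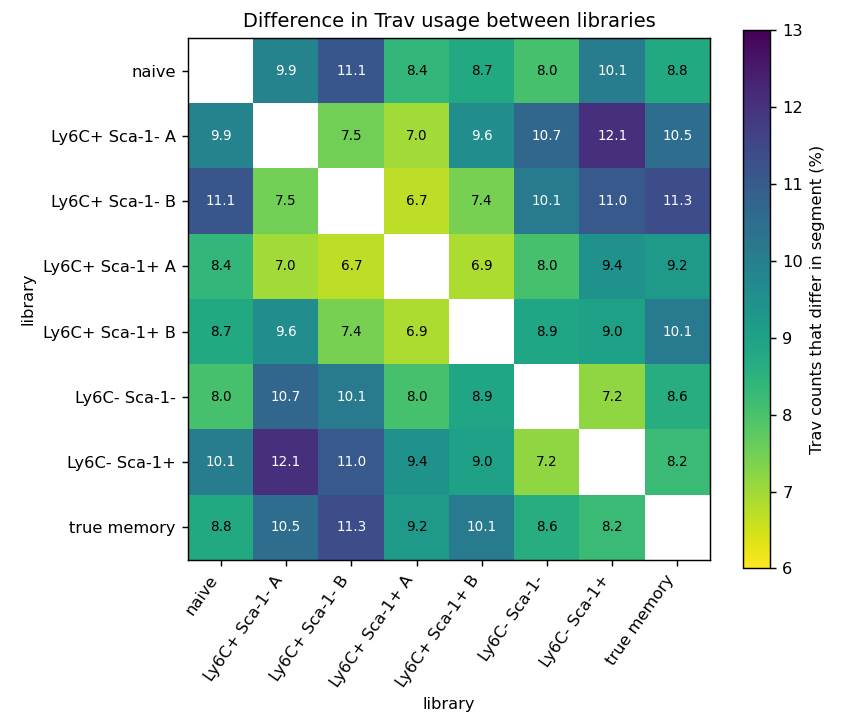
Percent of Trav counts that differ in segment between each pair of the 8 libraries (rows and columns; darker is more unlike). The 4 Ly6C+ libraries form a light block but for the 9.57% between Ly6C+ Sca-1- A and Ly6C+ Sca-1+ B, the 2 Ly6C- libraries differ by 7.17%, and the darkest cell, at 12.1%, joins Ly6C+ Sca-1- A with Ly6C- Sca-1+.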

How the data were processed

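RNA of 8 libraries was measured. Per the labels' protocols, stranded mRNA libraries (TruSeq) were sequenced as paired 101-base reads, with FastQC 0.11.7 for quality and Trimmomatic 0.38 for trimming. Builds and tools named in the submitters' processing notes are mm10, R 3.6.0 and edgeR; which aligner and counter made the table is not given in the sources used here. Raw counts per gene, as deposited by the authors, were the values used. Another 24 columns of values for single samples were left unused. The smallest deposited count was 1, so genes with 0 in a library are missing. Groups follow the titles, because another label calls every library virtual memory. The labels number replicates, but columns carry a suffix of unstated meaning, so A (without) and B (with) are only names.

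Counts entered 1 edgeR 4.0.16 quasi-likelihood fit (R 4.3.3) of all 8 libraries, with filterByExpr by group, TMM scaling, 1 term a group and Benjamini-Hochberg adjustment over 15112 genes. The spread rests on 2 residual degrees of freedom from the replicated groups (prior 4.14 degrees, common biological variation 0.151), and a lone library was assumed to vary like them. Standard errors are the fold change divided by the root of its F value. Libraries compared 1 with 1 got log2 CPM differences (prior count 2), untested. CPM divides counts by the library total on a common scale, and CPM per kb also by the coding length of the GENCODE transcript. Alternatives were DESeq2 1.42.0, scaling on the Trav total, no filter, copies summed, a replicate block and leaving out each library. Summing identical copies was added after seeing the data. Coordinates are from RefSeq (GRCm38.p6), which matched 110 of 110 members, and sequences from GENCODE M21. Intervals cover counting error only. Recombination signals beyond the segments were not examined.

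Named were the 10 highest mean shares, called segments or else the 3 smallest p-values of a comparison, Trav1, Trav11 and Trav11d, any share over 10%, and, in 1 against 1 comparisons, members of at least 5 CPM. Members and lists were chosen with earlier results of these data known.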

Additional observations from a re-analysis of the deposited data

How the results depend on the processing

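In the Ly6C comparison, 2 segments were called under DESeq2 (beside 23.6% of all genes), Trav total scaling (25.2%), no filter (19.7%), copies summed (21.6%) and identical copies summed (21.5%). Neither call held without either Ly6C- library, where the Ly6C+ libraries of the same Sca-1 state also left the comparison. Fewer segments were called without Ly6C+ Sca-1+ A or B. The share of all genes called fell in those fits too, and it rose without Ly6C+ Sca-1- A or B. These changes in number were thus not read as a result about the members. The call of Trav12n-3 gave log2 fold changes of 0.61 to 0.98 over 14 alternatives and that of Trav15n-2 1.16 to 1.61, each losing significance in 3. In the 4 other comparisons 0 segments were called under every alternative run but 1, the replicate block. With a replicate block that treated A and B as pairs, 5 segments were called in the Ly6C comparison, 1 in VM against naive (Trav13n-4, adjusted p = 0.044) and 1 in VM against true memory (Trav12-2, adjusted p = 0.019). Over all genes the block called 43.7%, 26.6% and 17.2% in these 3 comparisons, against 21.4%, 5.39% and 4.57% without it. The changes from A to B correlated between the 2 replicated groups at 0.35 over all genes and 0.03 over Trav segments. That pairing has 2 pairs and no support in the labels. The block also coded every library without a replicate as A, so those libraries were set against the Ly6C+ groups at their A level. For these reasons the block was not used. Trav1 in VM against naive was -0.071 with Trav total scaling, which moved the median of all genes there by -0.20. That scaling moved it by -0.26 against true memory and by -0.13 in the Ly6C comparison, where Trav12n-3 gave 0.67 and Trav15n-2 1.28. The mean effective number of 67.1 became 27.3 with copies summed and 68.8 without the largest segment of each library, and 26.0 segments on average held 50% of counts. The smallest depth is at Trav11n, at 4 to 8 counts a library, and it was not tested.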
